A study of Mus musculus with 16 samples.

Results

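The genes described here were 10 activity-dependent immediate-early genes, Fos, Fosb, Jun, Junb, Egr1, Npas4, Nr4a1, Ier2, Arc and Dusp1, followed in the dopaminergic neurons of the substantia nigra pars compacta (SNc). They were chosen by name, as genes known to be switched on by neuronal spiking, with earlier results of these data known, and all 10 were among the 25006 genes listed in the counts. The libraries came from mice in which the mitochondrial calcium uniporter gene Mcu was either intact or deleted in neurons that express the dopamine transporter (DAT). A virus carrying the Cre-dependent RiboTag construct was injected into the SNc of 8 control mice, of genotype DAT-Cre +/-, and of 8 MCU-KO mice, which were DAT-Cre +/- and MCU fl/fl. The mRNA bound to the tagged ribosomes was pulled down 30 days later, at postnatal day 45 according to the labels, and 1 library was sequenced per mouse. Both groups carried DAT-Cre and the virus, and the control mice came from other crosses than the MCU-KO mice. RiboTag reports mRNA on ribosomes rather than transcription, and only cells that took up the virus and expressed Cre carry the tag. Transcripts of other cells were also present, as their markers below show. A member's counts therefore need not all come from dopaminergic neurons. In such pooled tissue, fewer cells with a transcript and less of it per cell cannot be told apart.

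Immediate-early genes are transcribed within minutes of a stimulus without the need for new protein, and most of their mRNAs decay quickly. In neurons, calcium entry through voltage-gated channels activates kinases that act on CREB, which binds cyclic AMP response elements (CREs), and on the serum response factor. SNc dopaminergic neurons are pacemakers that spike without synaptic input, and the uniporter carries part of the calcium that spiking brings into the cell into mitochondria. The comparison of genotypes therefore asks whether ribosome-bound immediate-early transcripts differed in neurons without the uniporter.

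Sequence upstream of the transcription start was taken for the members with an entry in RefSeq (GRCm38.p6), as the 250 bases before the start. The windows of Fos, Jun, Junb and Dusp1 are printed because Fos and Jun were the members whose levels ran most alike between mice, Junb had the largest difference between genotypes and Dusp1 the largest excess of spread. Capitals mark TGACG (the core of a CRE, on either strand), the complete CRE TGACGTCA and the TATA box TATAAA on the transcribed strand.
Fos, chr12:85473640-85473889, plus strand: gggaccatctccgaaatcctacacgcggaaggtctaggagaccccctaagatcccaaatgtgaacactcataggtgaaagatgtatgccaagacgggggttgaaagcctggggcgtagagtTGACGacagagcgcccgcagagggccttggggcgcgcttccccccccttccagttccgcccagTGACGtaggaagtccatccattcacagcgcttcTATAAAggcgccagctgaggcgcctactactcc
Jun, chr4:95052223-95052472, minus strand: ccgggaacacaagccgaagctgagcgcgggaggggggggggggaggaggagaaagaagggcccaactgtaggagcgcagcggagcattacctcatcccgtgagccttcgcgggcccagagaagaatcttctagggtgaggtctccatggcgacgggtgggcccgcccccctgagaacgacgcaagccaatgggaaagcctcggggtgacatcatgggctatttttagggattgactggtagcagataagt
Junb, chr8:84978749-84978998, minus strand: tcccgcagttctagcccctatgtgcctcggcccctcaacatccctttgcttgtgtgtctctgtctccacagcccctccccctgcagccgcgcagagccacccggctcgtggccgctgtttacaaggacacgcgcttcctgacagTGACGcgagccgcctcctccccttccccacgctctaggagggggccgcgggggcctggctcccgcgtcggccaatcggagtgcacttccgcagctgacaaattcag
Dusp1, chr17:26508473-26508722, minus strand: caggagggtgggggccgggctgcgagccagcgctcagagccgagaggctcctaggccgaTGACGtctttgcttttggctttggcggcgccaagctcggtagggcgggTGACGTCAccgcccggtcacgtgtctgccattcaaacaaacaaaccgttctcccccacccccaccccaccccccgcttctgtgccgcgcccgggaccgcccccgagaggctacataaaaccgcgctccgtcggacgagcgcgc

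The Fos window held TGACG at 129 and at 66 bases before the start, and TATAAA at 33 bases before it. In Junb, TGACG lay at 106 bases before the start, and the Jun window held none of these 3 motifs. Dusp1 held the complete CRE at 143 bases before the start and a further TGACG at 191 bases. Over the 7 members with a window (Fos, Fosb, Jun, Junb, Npas4, Nr4a1 and Dusp1), 6 held TGACG, as did 17.9% of 27025 promoters of this length. The complete CRE, which contains TGACG on both strands, was in 1 of 7 members and in 1.62% of promoters, and TATAAA in 1 of 7 and in 8.12%. The GC box GGGCGG was in 6 of 7 and in 32.9%. Neither the AP-1 site TGAGTCA (4.43% of promoters) nor a CArG box (1.4%), both searched on either strand, was found in these 7 windows, which says nothing of sequence farther upstream. These matches describe letters and not binding.

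Counts per library summed to between 14129527 and 22016362, and MCU-KO mouse 8 had the smallest library while all others held at least 18999107 counts. Levels are given as CPM, in which each library is scaled to the same total. By library total alone, a floor of 3 counts was worth 0.136 CPM in the largest library and 0.212 CPM in the smallest. This floor covers counting error only. Mcu itself was at 6.25, 20.8 and 43.1 CPM (lowest, median and highest) in control mice and at 0.301, 12.8 and 21.3 CPM in MCU-KO mice. The groups overlapped, with a log2 fold change of -1.19 ± 0.59 (SE) and an unadjusted p of 0.0569 in edgeR's quasi-likelihood test (adjusted p = 1), so that Mcu counts did not by themselves sort the mice by label. The authors checked the deletion by other means, with quantitative PCR of Mcu on RiboTag mRNA and with measurements of mitochondrial calcium. The dopaminergic markers Th (5939 ± 884 CPM in control and 5708 ± 1248 CPM in MCU-KO, SD, n = 8 each) and Slc6a3 (3265 ± 544 and 2945 ± 729 CPM) were present in every mouse, as were the other 10 genes of a list of 12. Their summed level ran from 14850 to 19240 CPM in control mice and from 12720 to 21380 CPM in MCU-KO mice. Transcripts of other cells were also present, led by Mbp for the oligodendrocyte lineage (summed level of 12 markers 2973 to 5693 CPM in control and 3447 to 6819 CPM in MCU-KO), Slc1a2 and S100b for astrocytes (557 to 1072 and 657 to 1305 CPM), Gad2 and Gad1 for other neurons (247 to 468 and 206 to 534 CPM), Ctss and C1qb for microglia (104 to 322 and 112 to 455 CPM) and Vtn and Ly6c1 for vessels (41.0 to 89.9 and 27.9 to 109 CPM).
Of the defining genes of these lists, Gfap, Aqp4 and the glutamatergic marker Slc17a6 were detected in every mouse, whereas Slc17a7 was at 0 in 4 mice, Cx3cr1 in 1, P2ry12 in 5, Cldn5 in 3 and Flt1 in 1. The fitted level was higher in MCU-KO for 10 of 12 microglial, 9 of 12 astrocyte and 9 of 12 oligodendrocyte markers. It was higher for 4 of 12 dopaminergic, 7 of 10 other neuronal and 2 of 6 vessel markers tested. In edgeR's test 0 markers of any list had an adjusted p under 0.05.

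After adjustment over all genes, none of the immediate-early genes with enough counts for edgeR's test differed between genotypes beyond the spread between mice. In edgeR's test across 12390 genes, 8 of the 10 passed the filter on low counts and 0 of these 8 had an adjusted p under 0.05, against 0.178% of all genes tested. At an unadjusted p under 0.05 the count in edgeR was also 0 of 8, against 4.41% of all genes. DESeq2 and limma-voom likewise called 0 members after adjustment. In limma-voom with sample quality weights the unadjusted p was 0.0184 for Junb and 0.0431 for Dusp1, and the share of all genes under 0.05 in that fit is not given here. In no member were all mice of one genotype above all mice of the other, a separation found in 0.25% of genes. Of the 8, 3 (Junb, Egr1 and Nr4a1) had a higher fitted level in MCU-KO and 5 a lower one, with a median log2 fold change of -0.24 beside 0.0025 over all genes. Their 95% confidence intervals were wide, and 1 of 8, that of Jun, stayed between -1 and 1 on the log2 scale. The adjusted p was 1 for each of the 8. A simulation with these libraries' means and dispersions recovered 34% of genes changed 2-fold and 62% of genes changed 4-fold. The changed genes were drawn at random from all genes tested. The members varied more between mice than most genes, so these shares do not give the recovery for genes like them, which was not computed.

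**Figure D1:**
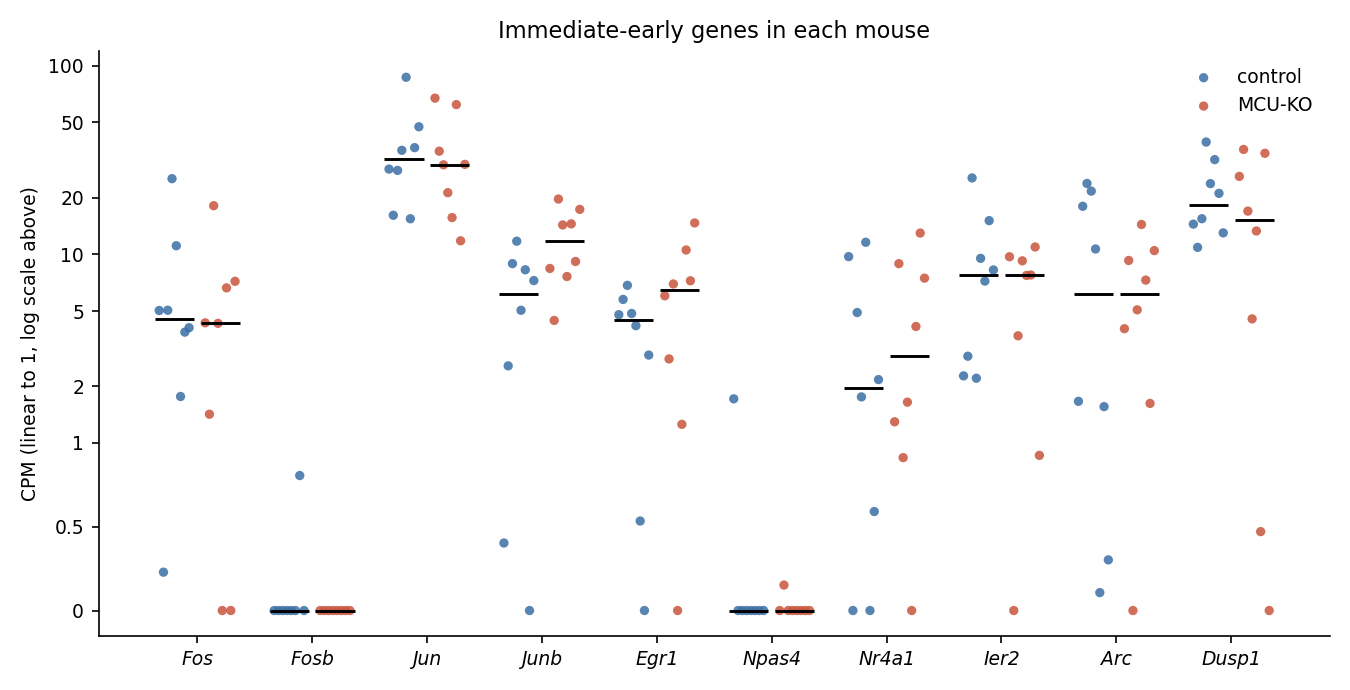
Level of each gene in every mouse, in CPM on an axis that is linear up to 1 and logarithmic above it, with control mice in blue, MCU-KO mice in red and a black line at the median of the 8 mice. The colours overlap for every gene, Jun and Dusp1 stand highest, and Fosb and Npas4 are at 0 in nearly all mice.

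Fos encodes the founding member of the Fos family, which pairs with Jun proteins to form the transcription factor AP-1, and lies at chr12:85473890-85477273 (GRCm38, plus strand). It was at 0.229, 4.56 and 25.2 CPM (lowest, median and highest) in control mice and at 0, 4.32 and 18.1 CPM in MCU-KO mice. One mouse of each genotype stood far above the others, control mouse 4 and MCU-KO mouse 3, while MCU-KO mice 5 and 7 had no Fos count, and the groups overlapped over nearly the whole range. MCU-KO differed from control by a log2 fold change of -0.42 ± 1.05 (SE), with a 95% confidence interval from -2.59 to 1.75 (unadjusted p = 0.69, edgeR), and it was 0.24 without control mouse 4.

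Fosb, whose product is a second Fos protein and which lies at chr7:19302696-19310051 on the minus strand, was nearly absent. A total of 15 counts, or 0.805 CPM, came from control mouse 7, and the other 15 mice had no count. The difference of mean log2(CPM + 1) was -0.11, with p = 1 in a two-sided exact permutation test over 12870 splits of the mice. With a single mouse above 0, every split gives a difference of the same size. The test therefore could not have found a difference, and Fosb could not be compared between genotypes.

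Jun, the partner of Fos in AP-1, is encoded by a gene without introns at chr4:95049034-95052222 (minus strand) and was the only member with at least 10 counts in every mouse. Its levels were 15.4, 31.9 and 86.8 CPM (lowest, median and highest) in control mice and 11.8, 29.9 and 67.3 CPM in MCU-KO mice. The medians lay close together, and control mouse 5 stood above all other mice. On the log2 scale the fitted difference was -0.11 ± 0.38 (SE; 95% confidence interval -0.90 to 0.68, unadjusted p = 0.78, edgeR). Its sign rested on single mice, since the value was 0.21 without control mouse 5, 0.01 without MCU-KO mouse 5 and 0.02 without MCU-KO mouse 7. An antisense transcript, Junos, overlaps 232 bases of Jun, and with the strand setting of the counting not given in the sources used here its reads cannot be told apart from those of Jun.

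Junb, a Jun protein that can hold back AP-1 activity driven by Jun, had the largest difference of the members. Its gene lies at chr8:84974484-84978718 on the minus strand. Levels were 0, 6.15 and 11.7 CPM (lowest, median and highest) in control mice and 4.46, 11.7 and 19.6 CPM in MCU-KO mice. Control mice 7 and 1, with 0 and 8 counts, were the lowest, 4 MCU-KO mice exceeded every control mouse, and the other 4 lay within the control range. edgeR's estimate of the log2 fold change was 1.11 ± 0.76 (SE; 95% confidence interval -0.47 to 2.69) with an unadjusted p of 0.16 in edgeR. The exact permutation test over 12870 splits gave a two-sided unadjusted p of 0.023 for a difference of 1.30 in mean log2(CPM + 1), which was 0.649 after adjustment over all 12390 genes, and 6.7% of genes had an unadjusted p under 0.05 in that test. The estimate was 0.98 with the level of glial and vessel markers as a covariate and 2.38 in limma-voom with sample quality weights (unadjusted p = 0.0184, adjusted p = 0.598). Prdx2 overlaps 173 bases of Junb on the opposite strand and was far more abundant, at 425 to 697 CPM, and its part in the Junb counts was not tested.

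Egr1 encodes a zinc-finger transcription factor much used as a mark of recent neuronal activity. It was at 0, 4.48 and 6.85 CPM (lowest, median and highest) in control mice and at 0, 6.49 and 14.7 CPM in MCU-KO mice. Each genotype had 1 mouse without a count, and 4 MCU-KO mice exceeded the highest control mouse. For this gene the log2 fold change was 0.73 ± 1.00 (SE; 95% confidence interval -1.34 to 2.79, unadjusted p = 0.474, edgeR), and it was 0.42 without MCU-KO mouse 8.

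Npas4 encodes a transcription factor that is induced selectively by calcium entry, and lies at chr19:4984355-4990316 on the minus strand. It had 34 counts (1.71 CPM) in control mouse 1, 3 counts (0.152 CPM) in MCU-KO mouse 2 and none in the other 14 mice. Nearly all libraries were thus at or below the floor of 3 counts. The difference of mean log2(CPM + 1) was -0.15 (p = 1, two-sided exact permutation test) and turned to 0.026 without control mouse 1. With counts in so few mice this test could not have found a difference, so Npas4 could not be compared between genotypes.

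Nr4a1, an orphan nuclear receptor also known as Nur77, lies at chr15:101254269-101274795 on the plus strand. Its levels were 0, 1.96 and 11.6 CPM (lowest, median and highest) in control mice and 0, 2.89 and 12.96 CPM in MCU-KO mice. Both groups spread from no count to more than 10 CPM, with control mice 2 and 6 and MCU-KO mouse 5 at 0. The log2 fold change was 0.28 ± 1.18 (SE; 95% confidence interval -2.16 to 2.72, unadjusted p = 0.814, edgeR) and was -0.14 without MCU-KO mouse 7.

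Ier2, which encodes a small nuclear protein of the immediate-early class, lies at chr8:84661331-84662852 (minus strand). It was at 2.20, 7.73 and 25.4 CPM (lowest, median and highest) in control mice and at 0, 7.75 and 10.9 CPM in MCU-KO mice. The medians were almost equal, and the high control values came from mice 3 and 7. The log2 fold change was -0.54 ± 0.82 (SE; 95% confidence interval -2.24 to 1.15, unadjusted p = 0.514, edgeR), and it was -0.11 without control mouse 3.

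Arc encodes a cytoskeletal protein that acts at synapses and promotes the removal of glutamate receptors, and its gene lies at chr15:74669083-74672570 on the minus strand. Levels were 0.107, 6.17 and 23.8 CPM (lowest, median and highest) in control mice and 0, 6.19 and 14.4 CPM in MCU-KO mice. The control mice fell apart into mice 2, 3, 4 and 5, above 10 CPM, and mice 1, 6, 7 and 8, below 2 CPM. None lay between. The MCU-KO mice showed no such gap and reached from 0 in mouse 3 to 14.4 CPM in mouse 5. Control mice 2, 3, 4 and 5 also had the larger libraries, of at least 20810138 counts, where control mice 1, 6, 7 and 8 held at most 20201642. Within control mice, Pearson's r of Arc was 0.86 with library total and 0.82 with the astrocyte markers. In MCU-KO mice these values were -0.30 and 0.21. The part of either in the split was not tested. The log2 fold change was -0.57 ± 0.97 (SE; 95% confidence interval -2.59 to 1.44, unadjusted p = 0.56, edgeR), while the difference of mean log2(CPM + 1) was -0.0016 (exact permutation p = 0.998). Without control mouse 3 the log2 fold change was -0.24, and without control mouse 4 it was -0.29.

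Dusp1 encodes a phosphatase that switches off MAP kinases and so helps to end the signal that induces the other members. The gene spans chr17:26505590-26562128 on the minus strand in GENCODE, and the RefSeq start used above lies inside this span. It was at 10.9, 18.2 and 39.4 CPM (lowest, median and highest) in control mice and at 0, 15.1 and 36.0 CPM in MCU-KO mice. Every control mouse had more than 10 CPM, whereas MCU-KO mice 8, 6 and 4 were below every control mouse, with 0, 10 and 94 counts, and MCU-KO mice 2 and 7 stood near the top of the control range. The log2 fold change was -0.37 ± 0.71 (SE; 95% confidence interval -1.84 to 1.10, unadjusted p = 0.609, edgeR). It was -0.18 without MCU-KO mouse 8, whose library was the smallest, and -1.91 in limma-voom with sample quality weights (unadjusted p = 0.0431, adjusted p = 0.671).

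**Figure D2:**
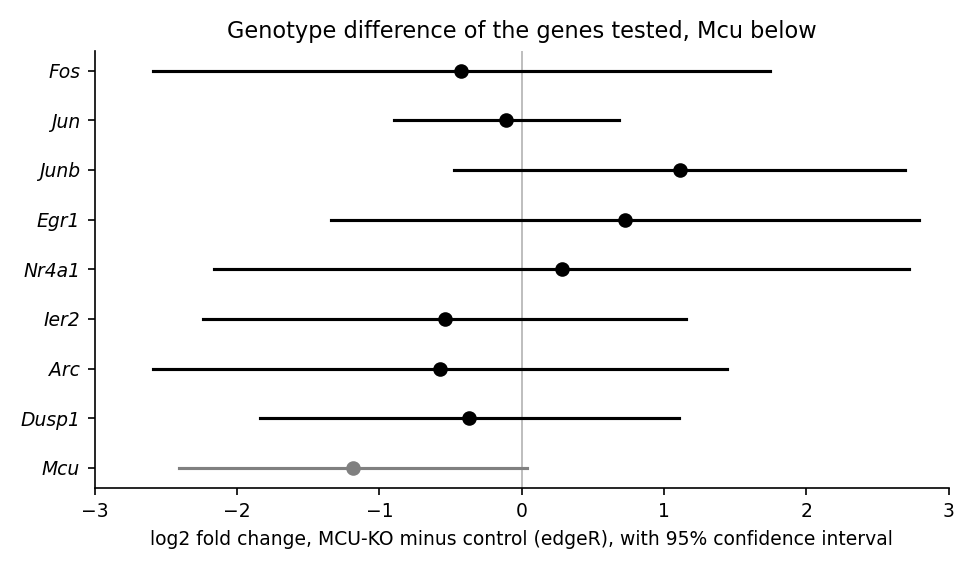
Log2 fold change of MCU-KO against control for the 8 genes tested (black) and for Mcu (grey), as points with 95% confidence intervals from edgeR. Every interval crosses 0, that of Jun is the narrowest of the members (-0.90 to 0.68), and that of Mcu ends at 0.04.

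The members varied widely between mice of the same genotype. The biological coefficient of variation (BCV), edgeR's estimate of the spread between mice beyond counting error, had a median of 116% over the 8 members and of 44.2% over all genes tested. Low genes vary more, so each BCV was set against the trend fitted over genes of the same level. The median ratio to the trend was 1.12 for the members and 0.911 for all genes, and 5 of 8 members lay above the trend, as did 38.2% of all genes. Dusp1 stood highest, with a BCV of 109% where the trend gave 62.5%, a ratio of 1.75 that 98.5% of genes did not reach. Jun followed with a ratio of 1.30 (percentile 87.3) and Arc with 1.24 (percentile 83.6), whereas Junb, Ier2 and Egr1 lay between 0.90 and 0.92. Counting of reads alone would give a coefficient of variation between 3.74% for Jun and 10.9% for Nr4a1, beside observed values between 44.2% for Junb in MCU-KO and 118% for Nr4a1 in control mice. With 1 library per mouse, variation from the pull-down and library preparation cannot be separated from differences between mice, and the BCV holds both.

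**Figure D3:**
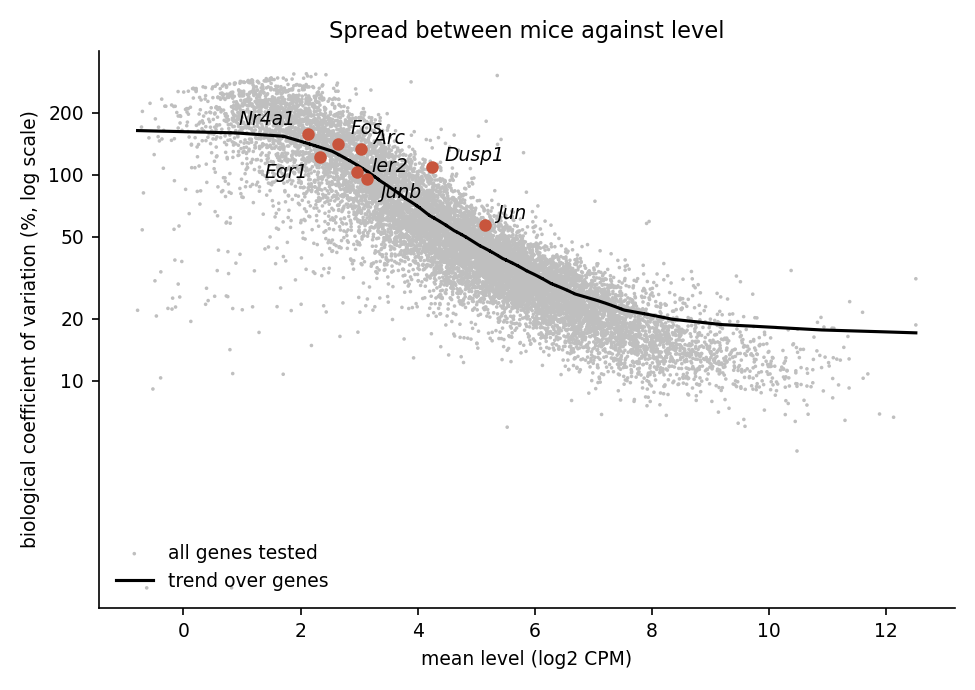
BCV in percent (log scale) against mean level in log2 CPM for all 12390 genes tested (grey), with the fitted trend (black line) and the 8 members (red). Dusp1 and Jun stand above the trend for their level, and the other 6 lie between 0.900 and 1.24 times the trend.

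Mice without any count were common among the members but usual for genes of their level. Of the 8 members tested, 7 had at least 1 mouse at 0, beside 22.3% of all genes tested. Egr1 and Nr4a1 had between 50 and 100 counts per mouse on average, a band in which 88.1% of 1215 genes had a mouse at 0, and Fos, Junb, Arc and Ier2 between 100 and 200 counts, where 61.7% of 1518 genes did. Dusp1 was the exception, since in its band of 200 to 400 counts 16.5% of 1959 genes had a mouse at 0.

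Whether mice of one genotype were more dispersed than mice of the other was tested with limma on the absolute deviations of log2 CPM from the genotype mean. After adjustment, 0 of 8 members passed, against 0.355% of all genes, and 2 of 8 had an unadjusted p under 0.05, against 9.6% of all genes. These were Dusp1 and Junb, in opposite directions, and neither passed with deviations taken from the genotype median (unadjusted p = 0.0774 and 0.151). For Dusp1 the mean scaled deviation was 0.57 in control and 2.61 in MCU-KO mice on the log2 scale, a difference of 2.03 ± 0.62 (SE; unadjusted p = 0.00489, adjusted p = 0.253). It fell to 1.13 without MCU-KO mouse 8 (adjusted p = 0.456). For Junb the deviation was 1.99 in control and 0.63 in MCU-KO mice, a difference of -1.36 ± 0.52 (SE; unadjusted p = 0.019, adjusted p = 0.403), and it was -0.60 without control mouse 7, the mouse with no Junb count. In a simulation, this test called 2% of 200 genes whose spread differed 4-fold, so it could detect few differences of that size.

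Members did not rise and fall together as a set. Over the 28 pairs of tested members, Pearson's r of log2 CPM, centred on the genotype, had a median of 0.02 across the 16 mice, with 15 pairs positive and 13 negative, and the median over all pairs of genes tested was -0.0025. No pair had an adjusted p under 0.05. Fos and Jun were the most alike, with r = 0.69 and a permutation p of 0.00568 (0.159 after adjustment over the 28 pairs), and Spearman's rho was 0.56 (permutation p = 0.0333, adjusted p = 0.637). Within the genotypes, r of this pair was 0.69 in control and 0.70 in MCU-KO mice, and it was 0.53 without the 2 mice farthest from the median of Fos. Across all pairs of genes 0.423% had a higher r than Fos and Jun. Jun with Nr4a1 (r = 0.44), Junb with Egr1 (0.42) and Fos with Nr4a1 (0.39) followed, but these values were high in control mice (0.75, 0.61 and 0.72) and low in MCU-KO mice (0.12, 0.12 and 0.17), a difference that was not tested. In the same order, the pooled r was 0.57, 0.115 and 0.47 without the 2 mice farthest from the median of the first gene. Spearman's rho was 0.33, 0.32 and 0.19. The next pairs by r did not share this drop in MCU-KO mice. Egr1 with Nr4a1 (r = 0.38) had 0.40 in control and 0.37 in MCU-KO mice. Fos with Junb (r = 0.23) went the other way, with 0.17 in control and 0.60 in MCU-KO mice. Its rho was 0.46 (permutation p = 0.0455, adjusted p = 0.637). Control mouse 7 had no count of Junb or of Egr1. Dusp1 had a pooled r below 0 with every member except Ier2 (0.02). The sign was not shared by the genotypes for Fos, where r was -0.29 over all mice, 0.60 in control and -0.44 in MCU-KO mice, nor for Junb, where it was -0.12, 0.24 and -0.61. It also differed for Jun (-0.16, 0.13 and -0.25) and for Ier2 (0.02, -0.07 and 0.03). Control mice 3, 4 and 5 had the highest levels on average over the members, with a mean rank of 5.75, 5.75 and 5.5 among 16, but no mouse was highest for more than 2 members, and MCU-KO mouse 7 was among the highest 3 mice for 4 members and had the lowest Fos and Jun.

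**Figure D4:**
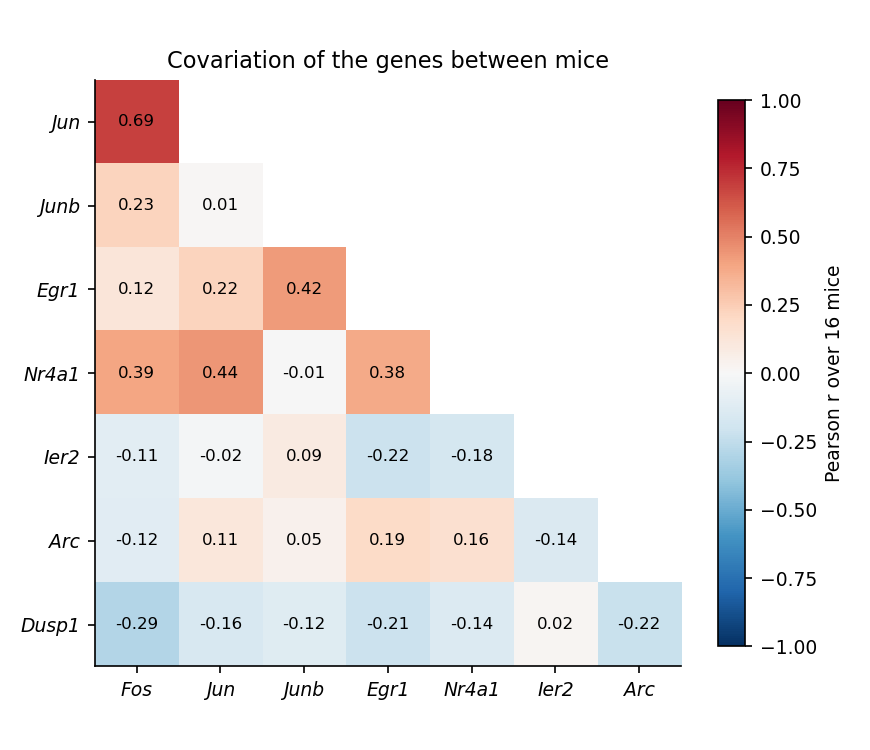
Pearson's r between the members over the 16 mice, computed on log2 CPM centred on each genotype, with red for positive and blue for negative values. Fos with Jun (0.69) is the strongest pair, and the pooled values in the row of Dusp1 run from -0.29 to 0.02.

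The level of each member was also set beside library total and the mean log2 CPM of 6 marker lists, 56 relations in all, of which 0 had an adjusted p under 0.05, while 4 by Pearson's r and 7 by Spearman's rho had an unadjusted one. The highest Pearson's r was that of Dusp1 with the dopaminergic markers, with r = 0.82 (permutation p = 0.00215, adjusted p = 0.12) and rho = 0.65 (permutation p = 0.0147, adjusted p = 0.206). It was 0.19 within control mice and 0.92 within MCU-KO mice, 0.61 without the 2 mice farthest from the median marker level and 0.77 without MCU-KO mouse 8. MCU-KO mice 6 and 8, which had almost no Dusp1, also had the lowest dopaminergic marker level, at 8.56 and 8.57 mean log2 CPM, where the other 14 mice lay between 8.69 and 9.08. Fos ran the other way, with r = -0.55 (permutation p = 0.0546, adjusted p = 0.489) and rho = -0.69 (permutation p = 0.00798, adjusted p = 0.149) with the same markers, so that by rank it was closer to them than Dusp1. Arc had r = 0.56 with the astrocyte markers and 0.55 with the vessel markers (permutation p = 0.0332 and 0.029, adjusted p = 0.489 for both), and rho was 0.67 with the astrocyte markers (permutation p = 0.00783, adjusted p = 0.149). The smallest permutation p by rank was that of Dusp1 with the oligodendrocyte markers (rho = -0.61, permutation p = 0.00453, adjusted p = 0.149). Dusp1 also had rho = -0.56 with the microglial and -0.52 with the astrocyte markers (permutation p = 0.0265 and 0.0317, adjusted p = 0.296 for both). The last of the 7 was Jun with the markers of other neurons (rho = -0.53, permutation p = 0.0445, adjusted p = 0.356). The part of these markers in the members' levels was not tested. By library total, Dusp1 had r = 0.66, which was 0.03 without MCU-KO mouse 8. Arc had r = 0.08 with library total over all mice, but 0.86 in control and -0.30 in MCU-KO mice. Egr1 had r = -0.04 over all mice, 0.80 in control and -0.36 in MCU-KO mice.

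**Figure D5:**
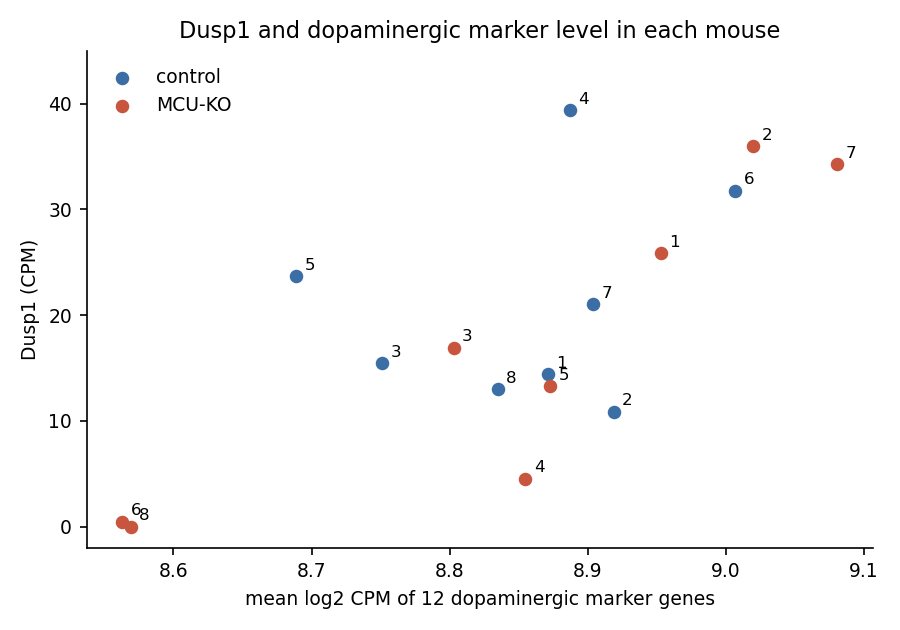
Dusp1 in CPM against the mean log2 CPM of 12 dopaminergic marker genes for each mouse, with control mice in blue, MCU-KO mice in red and the mouse number beside each point. MCU-KO mice 6 and 8 sit together at the lower left, and MCU-KO mice 2 and 7 at the upper right.

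Genes with the pattern most like that of the 3 most abundant members were looked up among 8936 genes with at least 10 counts in every mouse, by r of genotype-centred log2 CPM over 16 mice. For Dusp1 these were Tubb5 (0.85), Slc6a3, which encodes the dopamine transporter and is among the dopaminergic markers above (0.83), and Fam167a (0.82). Jun was closest to Lypla2 (0.88), Tars (0.81) and Nudt22 (0.80). Junb was closest to Gm5148 (0.88), Slc8a3 (0.87) and Myo18a (0.85). Being the highest among 8936 genes, these values are large through the selection itself, and they were not tested.

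Per kilobase of exon, the members' levels over the 16 mice fell in the order Jun (11.1 ± 6.58 CPM per kilobase, SD), Dusp1 (5.68 ± 3.71), Ier2 (5.04 ± 4.13), Junb (3.79 ± 2.47), Arc (2.65 ± 2.56), Fos (2.61 ± 2.91), Nr4a1 (1.21 ± 1.27), Egr1 (1.11 ± 0.877), Npas4 (0.0282 ± 0.103) and Fosb (0.00806 ± 0.0322). Neighbours in this order were compared within mice by an exact sign-flip test on log2 ratios, with adjustment over 9 pairs. Jun exceeded Dusp1 in 13 of 16 mice by 1.13 on the log2 scale (exact p = 0.00894, adjusted p = 0.0402). Egr1 exceeded Npas4 in 14 of 16 mice (exact p = 0.000122, adjusted p = 0.0011), and no size is given for this pair because Npas4 was at 0 in 14 mice. The other 7 neighbouring pairs did not differ beyond their spread, with adjusted p from 0.291 to 0.991. By CPM, Jun lay at percentile 56.4 of the genes tested, Dusp1 at percentile 40 and Nr4a1, the lowest of the 8 members tested, at percentile 11.2.

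Other genes of the same response gave a similar count. Of 46 further rapid immediate-early genes, 33 were tested, 0 had an adjusted p under 0.05 and 1, or 3.03%, an unadjusted one, below the 4.41% of all genes tested, with a median log2 fold change of 0.03. That gene was Jund, a Jun protein that is made largely without a stimulus, at 150 ± 40.7 CPM in control and 117 ± 11.9 CPM in MCU-KO mice (SD, n = 8 each) and a log2 fold change of -0.35 ± 0.16 (SE). By p it was followed by Arf4 (0.32 ± 0.17) and Arl4d (-1.74 ± 1.12). Rheb, Nr4a2 and Rgs2 had the most counts, and Nr4a2, a relative of Nr4a1 that dopaminergic neurons need for their identity, was at 273 ± 33.8 CPM in control and 277 ± 55.2 CPM in MCU-KO mice. Egr2, Egr3 and Egr4, relatives of Egr1 singled out after their values were seen, had no count in any of the 16 mice. The floor of 3 counts, at 0.136 to 0.212 CPM depending on the library, covers counting error only. Mice at 0 were common also among genes with higher mean counts, so the floor is no upper limit of their level in a single mouse.

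Genes of the later wave, which depend on newly made factors, were represented by 30 genes of which 25 were tested, with 0 past the adjusted threshold and 1, or 4%, at an unadjusted p under 0.05, near the 4.41% of all genes. This was Rasgrp1, an activator of Ras, at 2.17 ± 3.43 CPM in control and 10.5 ± 5.43 CPM in MCU-KO mice (SD, n = 8 each), with a log2 fold change of 2.27 ± 0.92 (SE) and an adjusted p of 1. It was followed by Tacr1 (-0.98 ± 0.71) and Sertad1 (1.23 ± 0.99). Scg2, Cdkn1a and Fbxo33 had the most counts, and Scg2, a precursor of secreted peptides, was at 1511 ± 171 CPM in control and 1436 ± 205 CPM in MCU-KO mice.

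Of 59 genes that carry calcium signals to the nucleus, 57 were tested, 0 had an adjusted p under 0.05 and 3, or 5.26%, an unadjusted one, near the 4.41% of all genes. Of these 3, 1 was higher and 2 lower in MCU-KO, with a median log2 fold change of 0.07. Ppp3cb, a catalytic subunit of calcineurin, was at 118 ± 25.2 CPM in control and 171 ± 35.8 CPM in MCU-KO mice (SD, n = 8 each), with a log2 fold change of 0.54 ± 0.15 (SE; unadjusted p = 0.00142, adjusted p = 0.366). Calm3, a calmodulin gene, was at 1143 ± 138 CPM in control and 932 ± 85.8 CPM in MCU-KO mice, with a log2 fold change of -0.29 ± 0.08 (SE; unadjusted p = 0.00174, adjusted p = 0.409), and DESeq2 called it. Camk1 had a log2 fold change of -0.30 ± 0.14 (SE). Among the genes with the most counts, Calm2, another calmodulin gene, was at 1898 ± 225 CPM in control and 1935 ± 225 CPM in MCU-KO mice, and Prkar1a, a regulatory subunit of protein kinase A, at 1369 ± 40.5 CPM in control and 1440 ± 190 CPM in MCU-KO mice.
Of 12 heat-shock genes, led by Hspa8, Hsp90aa1 and Hspa5, 0 were called and 0 had an unadjusted p under 0.05.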

How the data were processed

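The mRNA pulled down with ribosomes tagged in SNc dopaminergic neurons was sequenced in 8 control and 8 MCU-KO mice, 1 library per mouse, with groups taken from the sample labels. The authors trimmed the reads and mapped them to mm10 with STAR, and they deposited the whole-number counts per gene that HTSeq gave, not normalized. The Ensembl release and the strand setting are not given in the sources used here, and reads that fit several genes cannot be recovered. Gene symbols and positions came from GENCODE M21 on GRCm38, the build mm10 names. Upstream sequences came from RefSeq.

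CPM were computed here from TMM-scaled library sizes. Genotypes were compared with edgeR 4.0.16 (filterByExpr, TMM, quasi-likelihood test) over 12390 genes with Benjamini-Hochberg adjustment and a threshold of 0.05, and members were read from that fit. SE were derived from the fold change and its F statistic. Spread was compared with limma 3.58.1. Correlations used log2 CPM with a prior count of 2, centred on the genotype, and 100000 permutations within genotypes. Levels per kilobase were compared on log2 values with a pseudocount of 0.5. Alternatives were DESeq2 1.42.0, limma-voom, other normalizations and filters, the mouse number as a block, glial and vessel markers as a covariate and each mouse left out in turn.

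The members and the gene lists were chosen with earlier results of these data known. DESeq2 without its handling of outlying counts, the comparison of neighbouring levels, the exact test over all genes, the search of upstream motifs and the bands of mean count were chosen after seeing the data. All members were named. From each pathway list the 3 genes with the smallest unadjusted p and the 3 with the most counts were named, from the heat-shock list the 3 with the most counts, and from each marker list the defining genes and the 2 with the most counts. Some genes that this rule names are not reported here. The fits were tested on simulated counts with 200 changed genes. R 4.3.3 and Python 3.11.15 were used. P-values measure the spread between these mice.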

Additional observations from a re-analysis of the deposited data

Results flagged for a closer look

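Values were marked where the highest or lowest of the 8 mice of a genotype stood apart from its nearest neighbour by more than the 95% limit of Dixon's test. Among 38 groups of values examined there were 8 such cases, and chance flags about 1 in 20 groups where values are normally distributed. Sparse counts are not, and 3 of the 8 cases (Fosb and Npas4) were marked by a single mouse above 0, so the number of cases is not read as an excess. For Fos these were control mouse 4, at 25.2 CPM with the next mouse at 11.1 CPM, and MCU-KO mouse 3, at 18.1 CPM with the next at 7.19 CPM. Jun was at 86.8 CPM in control mouse 5 and at 47.4 CPM in the next. Fosb was at 0.805 CPM in control mouse 7, and Npas4 at 1.71 CPM in control mouse 1 and at 0.152 CPM in MCU-KO mouse 2, each with all other mice of the genotype at 0. On the log2 scale, Arc in MCU-KO mouse 3, which had no count, was lowest at -3.32 beside 0.78 in the next mouse. The library of MCU-KO mouse 8 held 14129527 counts, beside 19897268 in the next smallest MCU-KO library.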

How the results depend on the processing

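With each of 26 other settings 0 members were called, as were 0 of the other rapid and of the delayed genes, and in 20 other settings 0 members were called for spread. Over all genes, the count of 22 became 50 with DESeq2 in place of edgeR, also 50 without its outlier handling, and 14 with the replicate block, and it ran from 18 to 24 when each mouse was left out in turn. DESeq2, with and without outlier handling, called 1 calcium-to-nucleus gene, Calm3. The 44 genes called for spread became 11 with deviations from the median, 73 with a prior count of 0.5 and 0 with at least 10 counts in every mouse, and ran from 29 (without MCU-KO mouse 1) to 56 with each mouse left out. Signs turned for Fos (0.24 without control mouse 4), Jun (0.21 without control mouse 5, 0.01 without MCU-KO mouse 5 and 0.02 without MCU-KO mouse 7), Arc (0.35 with the replicate block), Nr4a1 (-0.14 without MCU-KO mouse 7) and Npas4 (0.026 without control mouse 1). Leaving out each mouse in turn moved the log2 fold change of Fos between -1.03 and 0.24, Jun between -0.32 and 0.21, Egr1 between 0.42 and 0.92, Arc between -0.84 and -0.24, Dusp1 between -0.64 and -0.18, Ier2 between -0.71 and -0.11, Nr4a1 between -0.14 and 0.78, and Npas4 between -0.18 and 0.026 on the log2(CPM + 1) scale. Junb, Egr1, Dusp1 and Ier2 kept their direction in all 26 settings, from 0.92 to 2.38 for Junb and from -1.91 to -0.18 for Dusp1. The cause of these shifts was not tested.

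The mouse number shared by the genotypes did not pair the mice, since 0 of 8 same-numbered pairs deviated together with a correlation over 0.1 (-0.06 to 0.03) and 0 of 16 mice correlated best with their own number. The median r of the pairs of members was 0.06 with the replicate block. The comparison of spread was not run with that block, because with 2 mice per number their deviations are equal in both genotypes. With at least 10 counts in every mouse, Jun alone of the members had a value. With 8 mice per genotype and members at a few CPM, the intervals of all members but Jun included 2-fold differences.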
